A study of Mus musculus with 10 samples.

Results

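Protease inhibitors with WAP (WFDC), Kunitz or Kazal domains, together with the phosphatidylethanolamine-binding inhibitor Pebp1, were examined in whole testes of 10 day old mice. The rule named 8 genes, Eppin, Wfdc1, Wfdc2, Slpi, Spint1, Spint2, Spink2 and Pebp1, and took every probe set whose platform annotation names 1 of them and no other gene. It found 9 probe sets for 7 of the genes, among 12393 genes named this way on the array. Spink2, a Kazal inhibitor expressed in the testis, had no such probe set and was not analysed here, and 1 further probe set that lists Pebp1 together with other genes was left out.

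The WAP, Kunitz and Kazal folds are small, disulphide-bonded domains, and in the classic inhibitors a loop of the domain occupies the active site of a serine protease. In the male tract such inhibitors, secreted or anchored in the membrane, restrain proteolysis around germ cells, epithelia and sperm. Eppin carries a WAP domain and a Kunitz domain in 1 protein and is known as a sperm-coating inhibitor made in testis and epididymis. Sertoli cells, somatic cells of the seminiferous tubule, are among the testicular cells through which androgens act on germ cells.

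Control mice carried the AMHCre transgene, in which Cre is under the promoter of the anti-Müllerian hormone gene, active in Sertoli cells. SCARKO mice have lost the androgen response selectively in Sertoli cells; whether they carry other alleles beyond this is not given in the labels. A pool combined RNA of 1 testis from each of 3 littermates and was hybridised to its own array, 10 in all, and the 5 control and 5 SCARKO pools form 5 numbered littermate pairs. All mice were 10 days old. The comparison asks which of these inhibitor transcripts depend on the androgen response of Sertoli cells at this age.

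The signals are Affymetrix intensities whose trimmed mean was 100 on each array, with array medians from 36.4 to 37.6. For pairs 1 to 4 the sample descriptions state the opposite genotype to the titles, while both agree for pair 5. The titles were used here, so every direction rests on them, and the log2 ratio of pair 5 is given beside those of the other pairs. Rhox5, a homeobox gene known as an androgen-dependent Sertoli transcript, had signals of 86.6 to 241.4 in the control pools and 7.9 to 12.7 in the SCARKO pools, with log2 ratios of -4.45 in pair 5 and between -4.83 and -2.77 in the others. Of the markers of testicular cells, all 15 Sertoli genes, 12 of 13 germ cell genes and all 5 Leydig genes on the array passed the signal filter, as did the 6 myoid, 8 macrophage and 6 endothelial genes. None of 7 genes of haploid germ cells passed it, nor any of 7 epididymal genes.

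Of the 5 inhibitor genes bright enough to test, 2 fell in SCARKO testes, Eppin 7.999-fold and Wfdc1 1.23-fold. Spint1, Spint2 and Pebp1 did not pass, and Slpi and Wfdc2 were too dim for a call. A gene was called at an adjusted p under 0.05, from limma's test on log2 signals with the littermate pair as a block and Benjamini-Hochberg adjustment over 13576 probe sets. Over all 7973 genes tested, 5.69% were called, 3.52% lower and 2.17% higher in SCARKO. A dim gene is 1 whose probe sets all lie among the 40% with the lowest mean log2 signal, under a signal of 19.3.

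**Figure D1:**
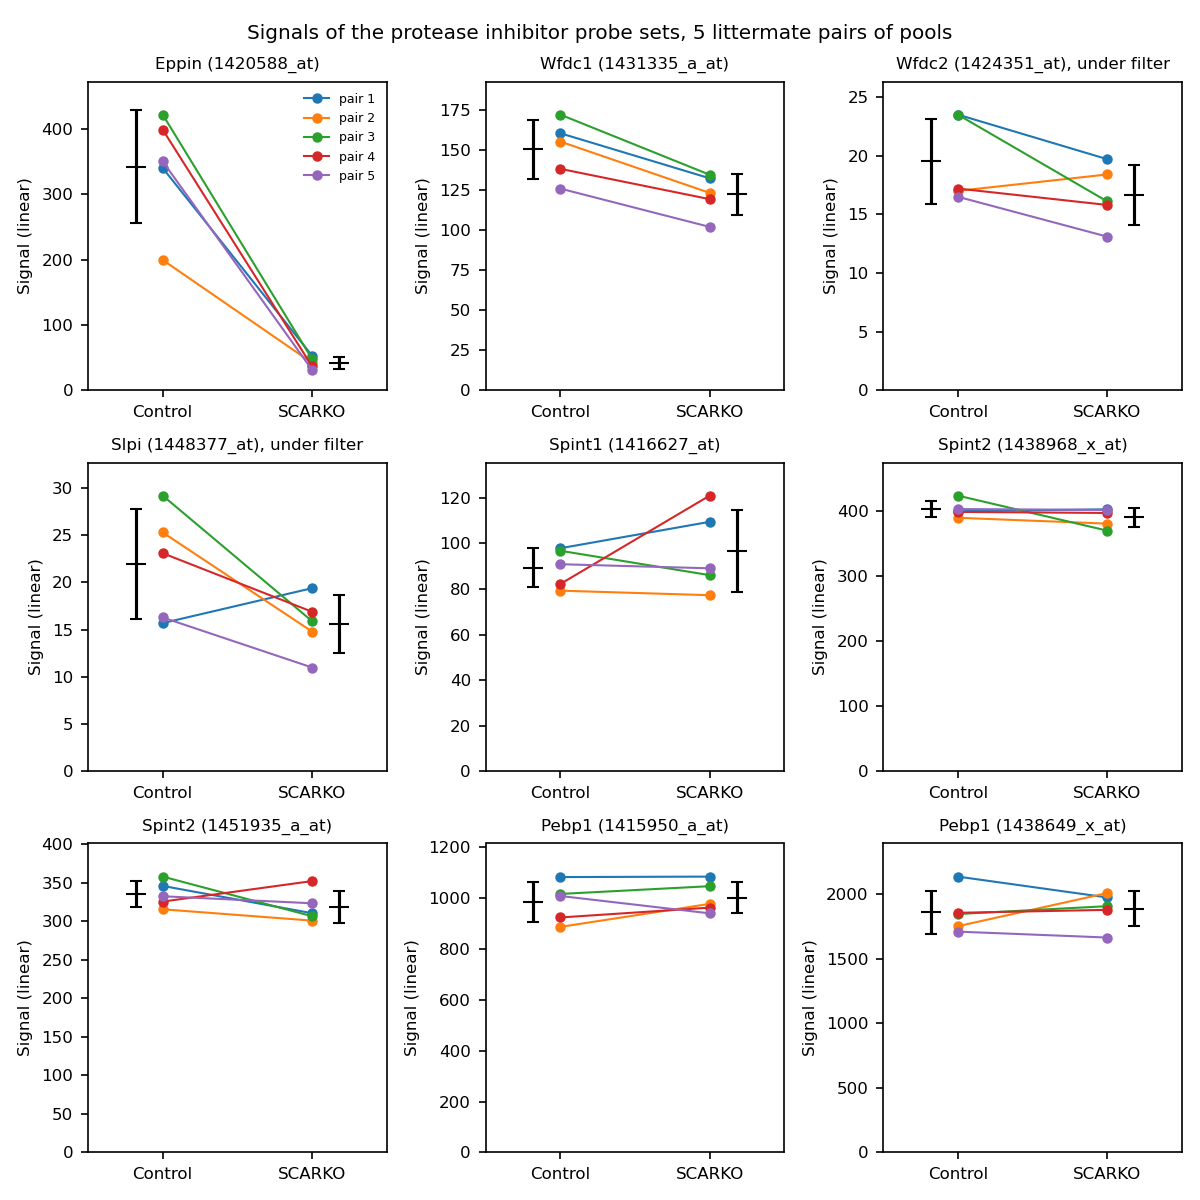
Linear signal (y axis, from 0) of the 9 probe sets in control and SCARKO pools; each coloured line joins the pools of 1 littermate pair and the black marks give the mean and SD of 5 pools. Eppin drops in every pair with no overlap, Wfdc1 drops in every pair with overlapping groups, and Spint1, Spint2 and Pebp1 show lines in both directions.

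Eppin (gene ID 75526, probe set 1420588_at) was the member with the largest change among those tested. Its signal in the control pools of pairs 1 to 5 was 340.1, 199.5, 421.8, 398.8 and 350.2, and in the SCARKO pools it was 53.0, 42.1, 47.9, 36.6 and 31.2. The groups did not overlap, the dimmest control pool being that of pair 2 and the dimmest SCARKO pool that of pair 5. Among all tested genes, 2.78% had SCARKO pools entirely below the control pools. The mean was 342 ± 86.6 in control and 42.2 ± 8.68 in SCARKO pools (SD, n = 5). The limma fit put the log2 fold change at -3.00 with an SE of 0.15 and a 95% interval of -3.33 to -2.67 (adjusted p = 5.2e-06), lower in 5 of 5 pairs. By the size of the fall it ranked 2 among 7973 genes, and by p it ranked 1.

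The signal left in SCARKO differed between pairs. It was 15.6% of the control signal in pair 1, 21.1% in pair 2, 11.4% in pair 3, 9.18% in pair 4 and 8.91% in pair 5. Every SCARKO pool stayed above 19.3, a cutoff that the filter sets on the mean over all arrays and that is no detection limit for a single pool. Without pair 2 the log2 fold change was -3.19, and pair 5 alone, for which both labels agree, gave -3.49 against a mean of -2.88 over the other 4 pairs.

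In bulk testis RNA, fewer cells of a type and less RNA per cell cannot be told apart. The summed signal of the 15 Sertoli markers was 9027.3 to 9492.5 in control and 8882.2 to 9092 in SCARKO pools. Clu and Ctsl, with control means of 2580 and 1905, weigh most in this sum. Of these markers 3 were called lower, Nr0b1 (log2 fold change -0.86), Cldn11 (-0.68) and Gata1 (-0.50). Another 2 were called higher, Fshr (0.42) and Kitl (0.24). Amh, at -0.71, was lower in 5 of 5 pairs but was not called (limma adjusted p = 0.065). Of the 15 markers, 8 had a negative log2 fold change. Over all tested genes 3.52% were called lower and 2.17% higher. None of the Sertoli markers was at 0. Of the 12 germ cell markers tested, 2 were called lower, Stag3 (log2 fold change -0.42) and Hspa2 (-0.31), and none higher, with a list median of 0.029. No Leydig, myoid, macrophage or endothelial marker was called. The part of any cell type in the falls of Eppin and Wfdc1 was not tested. The epididymis also expresses Eppin, and its 7 markers on the array summed to 23.6 to 32.2 in control and 19.2 to 32 in SCARKO pools, with no single signal above 10. Whether the epididymis expresses these markers at 10 days of age was not tested, nor was a part of epididymal RNA in the signals.

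The sequence before the Eppin start site is shown because Eppin had the largest change among the members and lies in a gene cluster of its own family. The 250 bases upstream of the RefSeq start are chr2:164593572-164593821 of GRCm38.p6, minus strand, printed 5′ to 3′. They were searched on both strands for exact copies of TGTTCT, whose reverse complement is AGAACA, and hold none. TGTTCT is a half-site hexamer of steroid hormone receptors. Near matches and pairs of half-sites were not searched for. The 30 bases at chr2:164593537-164593566, just after the start, hold 1 exact copy, given in capitals, at bases 18 to 23 counted from the start site.
Eppin upstream: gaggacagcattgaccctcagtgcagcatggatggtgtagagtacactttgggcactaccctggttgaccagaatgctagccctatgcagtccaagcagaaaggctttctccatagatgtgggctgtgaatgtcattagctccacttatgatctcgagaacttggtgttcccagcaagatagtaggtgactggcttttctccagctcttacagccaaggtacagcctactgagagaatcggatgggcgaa
Eppin start: cagacatttccaTGTTCTagaactaccagc

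This hexamer is common. Of 32851 RefSeq windows of 300 bases around mouse gene starts, 19% hold it on either strand. Of the inhibitor genes, 7 have a window in that table, all but Wfdc1, and Eppin alone of them holds the hexamer there. A match of letters describes the sequence and does not show a binding site.

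Wfdc1 (gene ID 67866, probe set 1431335_a_at) encodes a secreted protein with a single WAP domain, known from prostate stroma as a growth inhibitor. Its control signals in pairs 1 to 5 were 160.3, 155.1, 171.9, 138.1 and 125.8, and its SCARKO signals were 132.2, 123.1, 134.4, 119.2 and 101.9. The groups overlapped, because the SCARKO pools of pairs 1 and 3 were brighter than the control pool of pair 5, yet each SCARKO pool was dimmer than its own littermate control. Among all tested genes, 8.78% were lower in all 5 pairs. The SCARKO pools kept between 78.2% and 86.3% of the control signal, and the log2 ratio varied little between pairs (SD 0.055, from -0.36 to -0.21, with -0.30 in pair 5).

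The mean of Wfdc1 was 150 ± 18.3 in control and 122 ± 12.9 in SCARKO pools (SD, n = 5). Its log2 fold change was -0.30 (SE 0.056, 95% interval -0.42 to -0.17, limma adjusted p = 0.011). Its fall was smaller than the median of -0.38 among the 281 genes called lower. The call ended without the littermate block (adjusted p = 0.13), without pair 3 (0.056) and without the filter on dim probe sets (0.054). Eppin changed more than Wfdc1 in 5 of 5 pairs, by a mean of -2.70 on the log2 scale (SD 0.56), with a two-sided exact sign-flip p of 0.0625, the smallest that 5 pairs can give, and 0.089 after adjustment over the 10 pairs of member genes compared.

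Slpi and Wfdc2, the other WFDC members, were dim. Slpi (gene ID 20568), the secretory leukocyte inhibitor of elastase and cathepsin G, had signals of 15.7, 25.3, 29.2, 23.1 and 16.3 in control pools and 19.4, 14.8, 15.9, 16.9 and 11.0 in SCARKO pools of pairs 1 to 5. Its groups overlapped and it was lower in 4 of 5 pairs, pair 1 going the other way. Wfdc2 (gene ID 67701), an epithelial secretory protein of the epididymis and other tracts, had 23.5, 17.0, 23.5, 17.2 and 16.5 in control pools and 19.7, 18.4, 16.1, 15.8 and 13.1 in SCARKO pools. It too was lower in 4 of 5 pairs, with pair 2 the exception, and its groups overlapped.

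The mean log2 signals of Slpi (4.18) and Wfdc2 (4.15) lay just under the 4.27 that the filter required. In the limma fit without that filter, the log2 fold change was -0.47 for Slpi (SE 0.19, adjusted p = 0.35) and -0.23 for Wfdc2 (SE 0.13, adjusted p = 0.48), so neither was called. Detection calls were not used here, and whether these signals lie above background was not tested. Neutrophils, in which Slpi is abundant, had 7 markers on the array, none of which passed the filter.

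Spint1 and Spint2 encode the membrane-anchored Kunitz inhibitors of hepatocyte growth factor activator and of matriptase-like proteases. Spint1 (gene ID 20732, probe set 1416627_at) had control signals of 97.9, 79.3, 96.8, 82.2 and 90.9 and SCARKO signals of 109.5, 77.3, 86.1, 121.0 and 89.1 in pairs 1 to 5. It was higher in pairs 1 and 4 and lower in the other 3, and the SCARKO pools spread more (coefficient of variation 18.7% against 9.41%, a difference not tested). The log2 fold change was 0.10 (SE 0.097, 95% interval -0.12 to 0.31, limma adjusted p = 0.62), and without pair 4 it was -0.018. Both inhibitors are known from epithelia. Of 11 epithelial marker genes on the array, 5 passed the filter. All 11 together, dim ones included, summed to 450.5 to 488.5 in control and 459 to 529.9 in SCARKO pools, Epcam being the brightest. Of the 5 tested, 1, the keratin gene Krt18, was called higher (log2 fold change 0.97, limma adjusted p = 0.0079). The median of the 5 was 0.018, and 2 of them were negative. The part of epithelial cells in these values was not tested.

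Spint2 (gene ID 20733) was measured by both of its probe sets. With 1438968_x_at the control pools gave 400.0, 389.9, 424.0, 398.9 and 403.3 and the SCARKO pools 402.9, 380.9, 370.1, 397.3 and 402.0. With 1451935_a_at the control pools gave 345.6, 315.3, 357.7, 325.3 and 332.2 and the SCARKO pools 310.2, 300.6, 306.3, 351.9 and 323.1. In both the groups overlapped and 4 of 5 pairs were lower, but the exception was pair 1 in the first and pair 4 in the second.

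Neither Spint2 probe set passed. The log2 fold change was -0.046 (SE 0.046, 95% interval -0.15 to 0.055, limma adjusted p = 0.62) with the first and -0.075 (SE 0.054, 95% interval -0.19 to 0.044, adjusted p = 0.47) with the second. A name ending in x_at marks a probe set that may also bind other transcripts. Spint2 had the lowest spread of the members, with a coefficient of variation of 3.13% in control and 3.71% in SCARKO pools for the first probe set.

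Pebp1 encodes a phosphatidylethanolamine-binding protein that inhibits some serine proteases. Its probe set 1415950_a_at (gene ID 23980) gave 1082.3, 886.4, 1016.0, 923.5 and 1008.0 in control pools and 1084.2, 977.0, 1046.5, 962.3 and 939.8 in SCARKO pools of pairs 1 to 5. Its probe set 1438649_x_at gave 2137.2, 1752.8, 1847.3, 1856.6 and 1710.8 against 1975.7, 2009.6, 1908.1, 1879.6 and 1665.0. The groups overlapped in both, and pairs went in both directions in each.

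The log2 fold change of Pebp1 was 0.029 (SE 0.040, 95% interval -0.059 to 0.12, limma adjusted p = 0.73) for the first probe set and 0.022 (SE 0.042, 95% interval -0.070 to 0.11, adjusted p = 0.82) for the second. After quantile normalization both turned slightly negative, at -0.0013 and -0.034. These intervals leave out a change of the size of Wfdc1 in either direction for Spint2 and Pebp1, but not a rise of that size for Spint1. The median log2 fold change of all tested genes was 0.015.

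**Figure D2:**
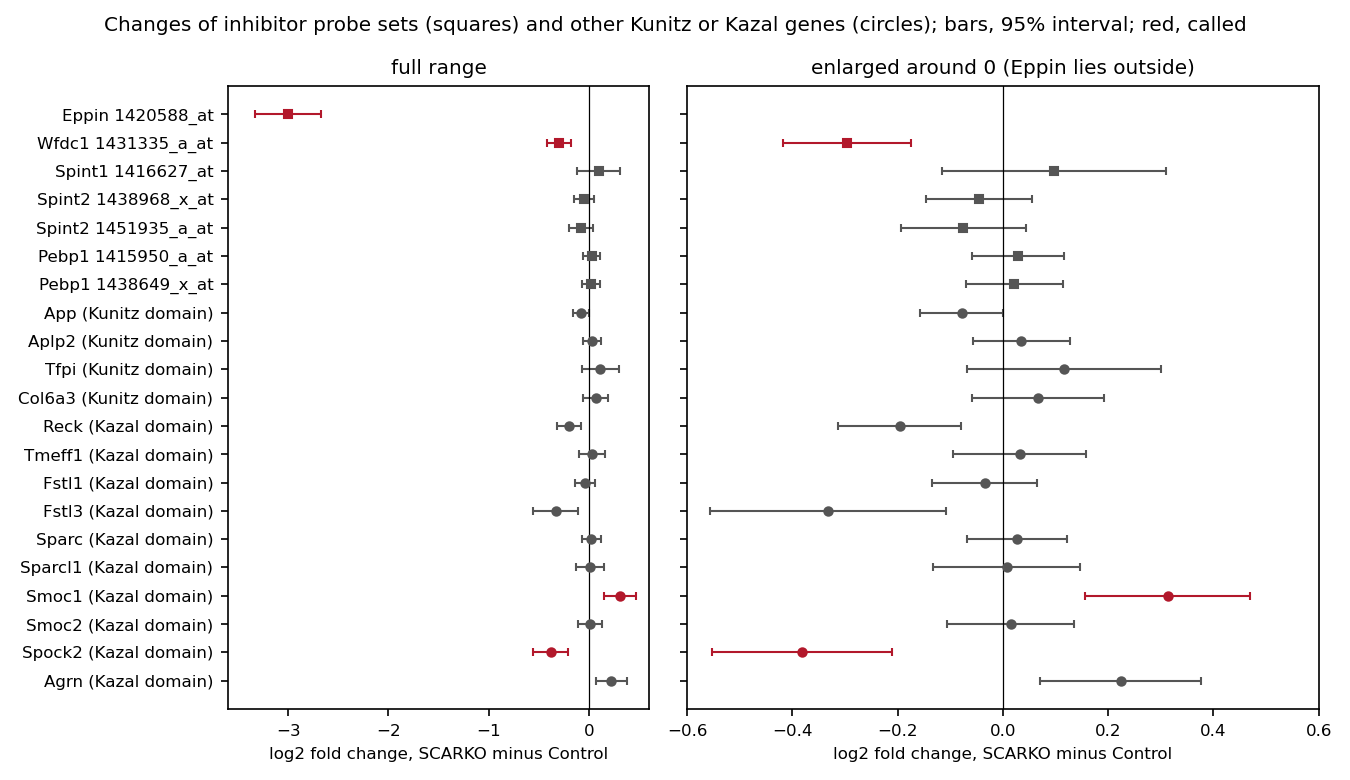
Log2 fold change, SCARKO minus control (x axis), with 95% intervals from the limma fit, for the 7 tested inhibitor probe sets (squares) and the 14 other tested genes with Kunitz or Kazal domains (circles); red marks called genes, and the right panel enlarges the range around 0. Eppin at -3.00 stands apart on the left, Wfdc1, Smoc1 and Spock2 are the other called genes, and the remaining points lie between -0.33 and 0.22.

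Other genes with the same domains came from lists written with earlier results known. Of the WFDC list, 6 genes that are no members were on the array, Wfdc5, Wfdc12, Wfdc15b, Wfdc18, Wfdc21 and Wap, and none reached the filter. Of the Kunitz list, 4 other genes were tested and none was called by limma, with 1 at an unadjusted p under 0.05. These were App, the amyloid precursor (log2 fold change -0.079, adjusted p = 0.24), Tfpi, the tissue factor pathway inhibitor (0.12, 0.48), the collagen gene Col6a3 (0.067, 0.55) and Aplp2 (0.034, 0.69). Their median was 0.051.

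Of the Kazal list, 10 genes were tested, matrix, secreted or membrane proteins with Kazal-type domains, and 1 fell and 1 rose. In the limma fit 5 of the 10 had an unadjusted p under 0.05, the called genes included. Spink1 and Spink4, the classic Kazal inhibitors on the array, did not reach the filter. Spock2, a testican proteoglycan, had means of 420 ± 73.8 in control and 318 ± 27.2 in SCARKO pools (SD, n = 5) and fell by 0.38 on the log2 scale (limma adjusted p = 0.017), lower in 5 of 5 pairs. Smoc1, a basement membrane calcium-binding protein, rose, with means of 113 ± 20.9 and 140 ± 21.1 (log2 fold change 0.31, adjusted p = 0.029), higher in 5 of 5 pairs, as were 11% of all tested genes. Reck, a membrane inhibitor of metalloproteinases, had a log2 fold change of -0.20 (adjusted p = 0.058). Fstl3 had -0.33 (limma adjusted p = 0.090) and was lower in 4 of 5 pairs. The list median was 0.011. The call of Spock2 ended without the block (0.093), without the filter (0.17), without the intensity trend (0.091) and without pair 1 (0.069) or 3 (0.071), and that of Smoc1 without the block (0.24), without the filter (0.14), without the trend (0.078) and without pair 1, 3, 4 or 5 (0.060 to 0.10).

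No protease on the list of targets and partners of these inhibitors passed the signal filter. Of its 28 genes on the array, 24 were under the filter, against 35.7% of all genes on the array, among them the acrosomal protease gene Acr, the matriptase gene St14, the hepsin gene Hpn, Hgfac, and the neutrophil proteases Elane and Ctsg. The 4 tested are partners and not proteases: Met, the hepatocyte growth factor receptor (log2 fold change 0.27, adjusted p = 0.27), Clu, which encodes clusterin, a known binding partner of Eppin (-0.048, 0.37), Epcam (-0.086, 0.39) and Grn, the progranulin precursor that Slpi protects from cleavage (0.071, 0.55). Limma called none, and none had an unadjusted p under 0.05.

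Eppin, Wfdc2 and Slpi lie in a cluster of WFDC and Kunitz genes on chromosome 2, so the genes around Eppin were examined, a choice made after the data were seen. Of the 15 protein-coding genes to each side, 30 in all, 13 had no probe set that names them alone, and 12 of these were WFDC or Spint genes, which flank Eppin on both sides. Another 9 were under the filter, Slpi and Wfdc2 among them. The 8 tested had log2 fold changes between -0.24 and 0.21, and limma called none, with 2 at an unadjusted p under 0.05. The nearest tested on either side were Dbndd2 (0.11, SE 0.069, adjusted p = 0.42) and the nuclear protein gene Dnttip1 (-0.066, SE 0.045, adjusted p = 0.45). The ubiquitin-conjugating enzyme gene Ube2c (0.21, adjusted p = 0.055) came closest to a call.

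**Figure D3:**
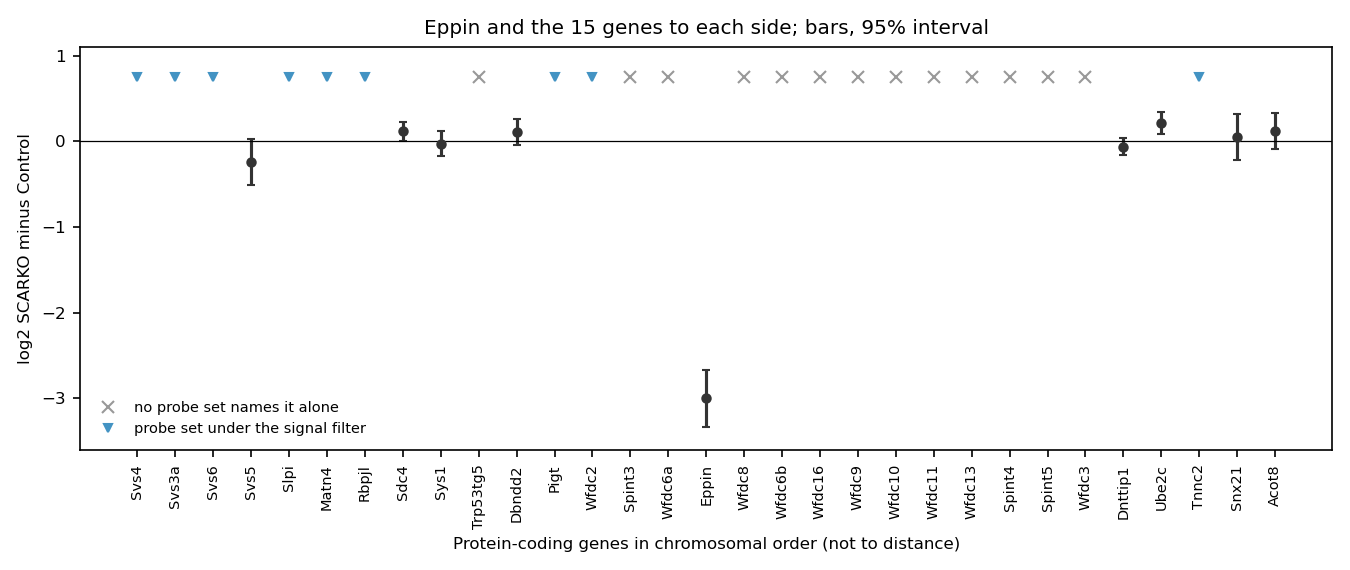
Log2 fold change, SCARKO minus control, with 95% intervals (y axis) for Eppin and the 15 protein-coding genes to each side in chromosomal order (x axis, not to distance); crosses mark genes with no probe set of their own and triangles those under the signal filter. Eppin sits at -3.00 while the 8 other tested genes sit between -0.24 and 0.21.

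The genes whose 5 within-pair log2 ratios lay nearest to those of Eppin, by root mean square distance over 5 pairs, were Drd4, Tsx, Rhox5 and Gpd1. Drd4, a dopamine receptor gene, lay at 0.68 log2 units, the X-linked Tsx at 0.76, Rhox5 at 1.23 and Gpd1, the glycerol-3-phosphate dehydrogenase gene, at 1.39. Pair 2 had the smallest fall for Eppin (-2.24), Drd4 (-1.85), Rhox5 (-2.77) and Gpd1 (-0.28), and it also had the dimmest control pool for these 4 genes. Tsx differed, with its smallest fall and its dimmest control pool in pair 1 (-1.61). These ratios share the same pools, and the distance describes likeness without a test. The choice by distance fixes that the genes nearest to Eppin also fell strongly. The control signal is part of each ratio, so a dim control pool by itself makes a fall smaller.

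For Wfdc1 the nearest genes were Zwilch (0.052 log2 units), Tapbp (0.062), Gprc5b (0.067) and Bag2 (0.068). Their log2 fold changes, between -0.31 and -0.26, were of the size of that of Wfdc1, which the choice by distance fixes. Zwilch encodes a kinetochore protein and Tapbp the tapasin of antigen loading.

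**Figure D4:**
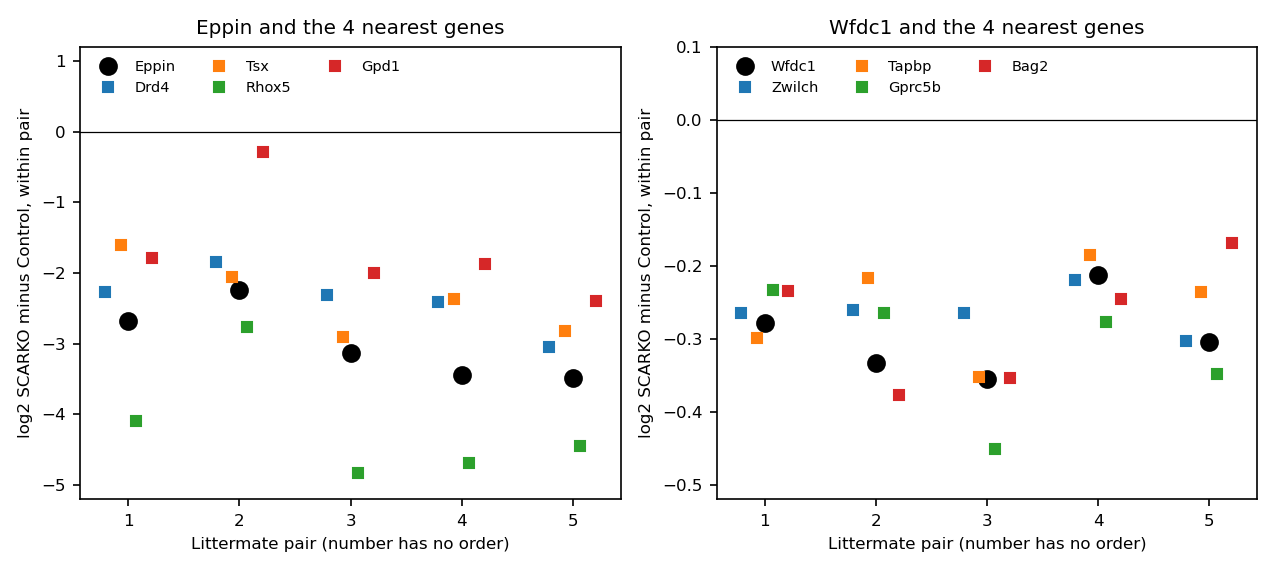
Within-pair log2 ratio, SCARKO minus control (y axis), in each of the 5 littermate pairs (x axis) for Eppin (left) and Wfdc1 (right), black circles, with the 4 nearest genes of each, coloured squares. Eppin lies between -3.49 and -2.24 and Wfdc1 between -0.36 and -0.21, and Gpd1 in pair 2 lies at -0.28.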

How the data were processed

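Whole-testis RNA of 10 day old mice was measured on 10 Affymetrix arrays, 5 control and 5 SCARKO pools. The deposited intensity of each probe set is linear and not log transformed. For 8 arrays the submitters' processing notes name MAS5, with no version; for pair 5 they name no tool. Precision is limited by the number of arrays. Groups and pair numbers came from the titles. The targeted gene is not reported here.

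The platform annotation gave the gene names, brought up to date by gene identifier with GRCm38.p6 symbols, and 29 single-gene probe sets kept older symbols. Values under 1 were set to 1 and log2 taken. The dimmest 40% of 22626 non-control probe sets were left out and 13576 kept. Each was fitted with limma 3.58.1 (R 4.3.3), pair as block, moderated variances with an intensity trend, two-sided. A gene is represented by its brightest kept probe set. The script was tested on simulated data. There it called 98% of log2 changes of -2, but 16% of those of -0.3 and 24% of those of 0.3. Of its calls there 7.26% were false. The simulated noise was independent between pools, with the full SD within groups, and a pair effect was added to it. In the data, part of that SD is shared within pairs, so these shares need not hold for the data.

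The labels' protocols state that littermate pools were paired, and same-numbered pools deviated together from their group means, with correlations of 0.11 to 0.39 across probe sets. Pairs 1, 2, 3 and 5 correlated best with their own number, while pair 4 (0.109) did no better than with another (0.109). Alternatives were no block, 16 added before log2, other filters, quantile normalization, no trend, each pair left out, groups from the descriptions, and the mean of a gene's probe sets. The genes named are the 8 members, every called gene of the family and target lists reported with up to 3 of the smallest p, and the 4 genes nearest to each called member. Aplp2, Grn, Agrn, Fstl3, Krt18, Dbndd2, Dnttip1, Ube2c and the Sertoli and germ cell markers were named beyond that rule, after their values were seen. So were the dim genes that are no members. The members and lists were chosen with earlier results of these data known. Promoter sequences are RefSeq's.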

Additional observations from a re-analysis of the deposited data

Results flagged for a closer look

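Of 27 sets of 5 values examined over the 9 probe sets (log2 signals of each group, and within-pair ratios), 2 held a value far from the others; chance flags about 1 in 20. In the control pools of Eppin, pair 2 (199.5, the next lowest being 340.1) had a gap of 0.712 of the whole range on the log2 scale, just above the critical 0.71. In the within-pair ratios of Spint2 (probe set 1438968_x_at), pair 3 (-0.20, against -0.034 to 0.010 in the others) had a gap of 0.786 of the range.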

How the results depend on the processing

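Under 11 of 12 alternatives the fall of Eppin kept its direction and its call (log2 fold change -3.19 to -2.59, and -3.19 to -2.88 with 1 pair left out). Without the filter, however, its limma adjusted p was 0.047, just under 0.05, and without the intensity trend it was 0.0026. Wfdc1 was -0.32 to -0.28 with 1 pair left out, and its call ended in 4 of 12 alternatives, without the block (-0.30), without the filter (-0.30), without pair 3 and with groups from the descriptions. Members called numbered 2, but 1 without the block or the filter, and 1 to 2 with 1 pair left out. Probe sets called numbered 704, but 404 without the littermate block, 38 without the filter, 321 without the intensity trend, and 304 to 743 with 1 pair left out. When the descriptions set the groups of pairs 1 to 4, limma called 0 probe sets and 0 members (611 probe sets at an unadjusted p under 0.05), and signs turned: Eppin 1.60, Wfdc1 0.18, Spint1 -0.11, Spint2 0.044 and 0.059, Pebp1 -0.069 and -0.038. Quantile normalization turned both Pebp1 values, to -0.0013 and -0.034. With 1 pair left out, Spint1 ranged from -0.018 to 0.16 and the second Pebp1 probe set from -0.022 to 0.056. Why values moved under the other alternatives was not tested. The littermate block changed no other member's call. The mean of a gene's probe sets changed no call. Signals near 19.3 limit what can be said of Slpi and Wfdc2.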

Other observations

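Among family genes under the signal filter, Wfdc18, a WAP-domain gene, had signals of 17.6 to 32.7 in control and 7.9 to 18.5 in SCARKO pools, lower in 4 of 5 pairs. Tmeff2, a membrane protein with Kazal-type domains, had 13.3 to 17.1 in control and 17.7 to 20.4 in SCARKO pools, with no overlap and higher in 5 of 5 pairs. Wfdc15b had 0.5 to 4.9 against 2.0 to 21.3, higher in 5 of 5 pairs. Over all tested genes, 11% were higher in all 5 pairs and 2.47% had SCARKO pools entirely above the control pools. Those shares are of genes that passed the filter, and no share was taken among dim genes. Wfdc18, Tmeff2 and Wfdc15b were picked after their values were seen, and none was tested in the main comparison.

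Among tested genes, Agrn, which encodes agrin, a basement membrane proteoglycan with Kazal-type domains, had 71.8 to 81.4 in control and 81.7 to 102.3 in SCARKO pools. Its groups did not overlap and it was higher in 5 of 5 pairs, yet it was not called (log2 fold change 0.22, limma adjusted p = 0.094). Over all tested genes, 2.47% had SCARKO pools entirely above the control pools.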
